A study of Mus musculus with 6 samples.

Results

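The genes described here are the 5 NF-kB subunits (Nfkb1, Nfkb2, Rel, Relb and Rela) and 5 genes that restrain them in a feedback loop (Nfkbia, Nfkbie, Nfkbiz, Nfkbid and Tnfaip3). They were taken by symbol and are 10 of the 32285 genes counted, each listed once. The counts came from single-cell RNA sequencing of marrow cells held on a magnetic column by beads against CD11b, the myeloid integrin that Itgam encodes, from C57BL/6 mice aged 2 months. The 3 femur libraries, 1 female and 2 male, came from marrow flushed out of the long bones. The labels name femurs and tibiae for this group, whereas the study's methods name femurs alone. The 3 mandible libraries, all male, came from jaws whose molars had been pulled, with the sockets flushed as well. No group was treated. The number of animals in a library is not stated, so the p-values below measure the spread between these libraries.

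NF-kB proteins are transcription factors that work as pairs of the 5 subunits and drive genes of inflammation and cell survival. In a resting cell the pairs are held in the cytoplasm by inhibitors of the IkB family. Signals from Toll-like, interleukin-1 and tumour necrosis factor receptors lead to the destruction of these inhibitors and release the pairs to the nucleus. Several inhibitor genes are themselves switched on by NF-kB, which shuts the signal off again. In bone marrow the pathway is best known for its part in the inflammatory output of neutrophils and monocytes and in the formation of osteoclasts.

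The inhibitors act in different ways. Nfkbia (IkB-alpha) and Nfkbie (IkB-epsilon) hold the subunits in the cytoplasm. Nfkbiz (IkB-zeta) and Nfkbid (IkB-NS) sit in the nucleus, where they bind subunits at target genes and can raise or lower their transcription. Tnfaip3 (A20) edits ubiquitin chains on proteins upstream of the IkB kinase. On the mouse build mm10 Nfkbia lies at chr12:55489410-55492647 on the minus strand, Nfkbie at chr17:45555703-45563169 on the plus strand, Nfkbiz at chr16:55811375-55838899 on the minus strand, Nfkbid at chr7:30421732-30428746 on the plus strand and Tnfaip3 at chr10:19000910-19015657 on the minus strand. The subunit genes are Nfkb1 (chr3:135584655-135691547, minus), Nfkb2 (chr19:46304320-46312385, plus), Rel (chr11:23736847-23770970, minus), Relb (chr7:19606217-19629438, minus) and Rela (chr19:5637483-5648130, plus). Nfkb2 overlapped 2 annotated genes on the other strand and Nfkb1 overlapped 1 on its own strand. The sources used here do not state whether reads were counted by strand, so the Nfkb1 and Nfkb2 counts may hold reads of those neighbours.

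Promoter windows are shown because feedback rests on NF-kB binding at the genes of its own inhibitors. RefSeq windows of 300 bases (250 before and 50 after a transcription start, build GRCm38.p6) were found for 7 of the 10 genes, in 12 windows. The 10-base kB consensus, searched on both strands, matched in 8 of these windows and in 6 of the 7 genes (Nfkbia, Nfkbie, Nfkbid, Tnfaip3, Nfkb2 and Rel). Of all 32851 windows 4.51% held a match, as did 5.14% of all 27025 genes with a window. The Rela window held none. A match is a run of letters and was not tested for binding. The stretches below are written 5′ to 3′ on the strand of the gene, with 1 match in each in capitals. None runs past the start site of its own window, and only those of Nfkbia and of the second Tnfaip3 match reach it. Some windows belong to starts that lie further in than the first base of the gene. The stretches of Nfkbid, Tnfaip3 and Nfkb2 therefore fall inside the gene bounds given above. The Nfkbid window at the first base of the gene held no match.
Nfkbia, chr12:55492648-55492696: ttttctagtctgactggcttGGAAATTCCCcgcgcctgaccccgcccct
Nfkbie, chr17:45555574-45555623: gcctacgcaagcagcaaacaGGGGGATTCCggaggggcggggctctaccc
Nfkbid, chr7:30422160-30422209: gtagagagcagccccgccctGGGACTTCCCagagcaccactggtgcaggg
Nfkbid, chr7:30422205-30422254: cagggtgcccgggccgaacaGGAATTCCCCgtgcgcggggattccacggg
Tnfaip3, chr10:19015506-19015555: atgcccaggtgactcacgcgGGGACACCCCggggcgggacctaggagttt
Tnfaip3, chr10:19015411-19015442: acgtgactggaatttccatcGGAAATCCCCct
Nfkb2, chr19:46304678-46304727: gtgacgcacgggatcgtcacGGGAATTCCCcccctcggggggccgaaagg
Rel, chr11:23771032-23771081: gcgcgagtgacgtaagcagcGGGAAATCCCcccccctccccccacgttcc
The Nfkbia match began at base -29 from the start site of its window and the second Tnfaip3 match at base -12 from that of its own. In Nfkb2 and in Rel a further match overlapped the one shown, shifted by 1 base, and the windows of Nfkb2 held other matches not shown.

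The kept cells numbered 69776, from 7763 to 22797 per library, with 82962160 to 244946998 UMIs (unique molecular identifiers, 1 for each captured molecule) per library. Levels are UMIs per 1000000 UMIs (CPM), summed over a library's cells in 1 of the 9 clusters deposited by the authors. Each molecule gives 1 tag near its 3′ end whatever its length, and levels were ordered within a gene only. The reference labels deposited with the cells named 95.2% or more of clusters 0, 1, 2, 3, 4 and 7 as neutrophils. Elane and Mpo, made by neutrophil precursors, averaged 1058 and 290 CPM in cluster 4 against at most 76.1 CPM in any other cluster. Ltf, of secondary granules, was highest in cluster 0 (13232.5 CPM), Mmp8 in cluster 3 (5420 CPM) and the receptor gene Csf3r in cluster 1 (2659 CPM). Cluster 5 was labelled as monocytes (50.8% of 7354 cells), neutrophils (34.4%) and macrophages (6.55%), and held the monocyte gene Ccr2 at 748 CPM. Cluster 6 was labelled 85.0% B cells and held Cd79a at 1639 CPM, while Itgam, the selected antigen, was lowest there at 198 CPM. Between 15 and 70 cell barcodes were shared by any pair of libraries. Clusters had been drawn from these same genes, so levels between them are given as a description without a test.

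Among the subunits, Rel, Relb and Nfkb2 shared an order over the clusters. Rel (c-Rel, an activating subunit of blood cells) averaged 41.4 ± 4.93 CPM (SD, n = 6 libraries) in cluster 4, 52.0 in cluster 0, 61.2 in cluster 3, 82.8 in cluster 2 and 115 ± 18.1 in cluster 1. Each of these steps was upward in 6 of 6 libraries. In cluster 5 Rel averaged 146 ± 32.2 CPM and in cluster 6 it averaged 222 ± 77.2 CPM, again each above the one before in 6 of 6 libraries. Femur replicate 1 had 371 CPM in cluster 6 from 39 cells, against 170 to 239 CPM in the other 5 libraries.

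Relb, the partner of the Nfkb2 product in the alternative pathway, was at 4.67 ± 0.184 CPM in cluster 4 and 19.2 ± 2.59 CPM in cluster 1, a median ratio of 4.14 over the 6 libraries (range 3.31 to 4.85). It reached 26.9 ± 5.22 CPM in cluster 5 and 42.9 ± 7.35 CPM in cluster 6. Nfkb2 (p100, processed to p52) was at 6.59 ± 0.425 CPM in cluster 4, 7.25 in cluster 0 and 7.30 in cluster 3, where the last pair did not keep 1 order (cluster 3 higher in 2 of 6 libraries). It stood at 13.9 ± 2.18 CPM in cluster 1, 26.6 ± 4.59 in cluster 5 and 39.6 ± 5.00 in cluster 6, each step upward in 6 of 6 libraries. The monocyte and B cell clusters thus held more of both alternative-pathway genes per UMI than any of the 5 neutrophil clusters 0 to 4, in every library.

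Nfkb1 and Rela, the p50 and p65 of the commonest NF-kB pair, had other orders. Nfkb1 was highest in cluster 5 at 237 ± 32.0 CPM, above cluster 6 (186 ± 37.6 CPM) in 6 of 6 libraries. In neutrophils it went from 91.9 ± 8.0 CPM in cluster 4 to 133 in cluster 0 and 156 in cluster 3, and was lower at 139 in cluster 2 (6 of 6 libraries) and 145 ± 18.3 in cluster 1. Clusters 1, 2 and 7 lay within their spread of each other. Rela went from 28.4 ± 2.3 CPM in cluster 4 to 61.1 ± 9.14 CPM in cluster 1 by steps that were upward in 6 of 6 libraries. Its cluster 5 level of 52.5 ± 6.36 CPM did not differ beyond the spread from that of cluster 2 (higher in cluster 5 in 3 of 6 libraries).

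The 2 cytoplasmic inhibitors had different patterns. Nfkbia was at 129 ± 10.2 CPM in cluster 4, 103 ± 13.2 in cluster 0 and 80.7 ± 6.36 in cluster 3, lower at each step in 6 of 6 libraries. It was then higher at each step, with 134 ± 21.7 CPM in cluster 2 and 200 ± 41.4 in cluster 1 (6 of 6 libraries each). Clusters 1 and 6 (188 ± 24.1 CPM) did not keep 1 order, and cluster 6 was the higher when each cell counted equally. Nfkbie was lowest in cluster 4 at 5.40 ± 0.674 CPM, lay between 10.1 and 12.1 CPM in clusters 0, 1, 2, 3 and 7, and reached 19.8 ± 5.34 CPM in cluster 5 and 46.7 ± 10.2 CPM in cluster 6.

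Both nuclear inhibitors were highest in neutrophil cluster 1. Nfkbiz averaged 132 ± 26.0 CPM in cluster 4, 406 in cluster 0, 562 in cluster 3, 733 in cluster 2 and 906 ± 268 in cluster 1, upward at each step in 6 of 6 libraries. Cluster 1 held 4.36 to 10.1 times the cluster 4 level, with a median ratio of 6.43. In cluster 5 Nfkbiz was at 366 ± 70.2 CPM, below cluster 1 in 6 of 6 libraries. Nfkbid had a later step, from 37.1 ± 7.76 CPM in cluster 4 to 58.7 in cluster 3, 135 in cluster 2 and 246 ± 106 in cluster 1. It was at 57.4 ± 13.6 CPM in cluster 5, and its cluster 1 level was higher than that in each of the other 8 clusters in 6 of 6 libraries.

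Tnfaip3 was at 5.53 ± 1.13 CPM in cluster 4, 8.07 in cluster 0 and 7.60 in cluster 3, where the last pair did not keep 1 order. It was at 14.1 ± 7.24 CPM in cluster 2 and 25.7 ± 11.0 in cluster 1, a step that was upward in 6 of 6 libraries. Clusters 1, 5 (29.0 ± 9.61 CPM) and 6 (32.0 ± 7.41 CPM) overlapped widely. Cluster 7, neutrophils with a median mitochondrial share of 6.78%, had mean levels between those of clusters 3 and 1 for all of the genes but Nfkb1 and Nfkbie. Cluster 8, with 274 cells and Hba-a1 at 36723 CPM, had too few UMIs of most of the genes for an order.

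**Figure D1:**
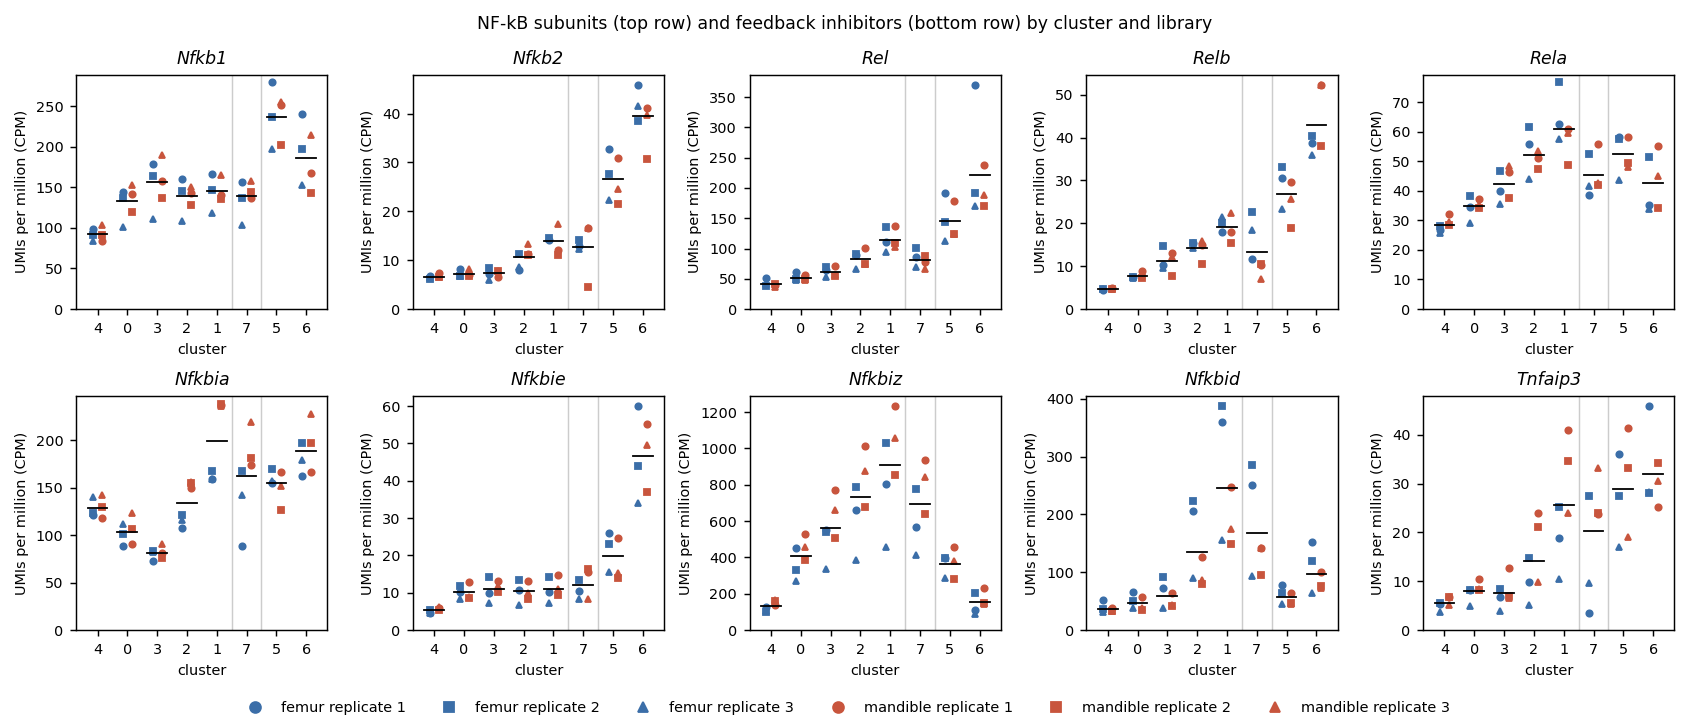
Levels of the 10 genes in CPM (linear axes from 0) in clusters 4, 0, 3, 2 and 1 (neutrophils), 7 (neutrophils with more mitochondrial RNA), 5 (monocytes and others) and 6 (B cells). Each point is 1 library (blue femur, red mandible, shape by replicate) and the bar is the mean of 6. Rel, Relb and Nfkb2 were highest in cluster 6, Nfkb1 in cluster 5, and Nfkbiz, Nfkbid and Rela in cluster 1.

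Cluster 5 mixed cell types, and 3 labels had at least 20 cells in each library: monocytes (3734 cells), neutrophils (2529) and macrophages (482, with 46 to 167 per library). The neutrophil marker list summed to 206601 CPM in the neutrophil-labelled cells against 15441 CPM in the monocyte-labelled and 12977 CPM in the macrophage-labelled cells. In the neutrophil-labelled cells Nfkbiz was at 668, 550.5 and 324 CPM in femur replicates 1 to 3 and at 697, 422 and 543 CPM in mandible replicates 1 to 3. In the monocyte-labelled cells of the same libraries it was at 307, 321, 220, 344, 182 and 248 CPM, lower in each library. The macrophage-labelled cells held 122 to 228 CPM. Nfkbid was likewise higher in the neutrophil-labelled than the monocyte-labelled cells in 6 of 6 libraries (median ratio 1.79).

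Most subunits ran the other way. Rel averaged 176 ± 32.6 CPM in the monocyte-labelled and 126 ± 31.8 CPM in the neutrophil-labelled cells, and was lower in the latter in 6 of 6 libraries. Nfkb1, Nfkb2 and Relb were also lower in the neutrophil-labelled cells in 6 of 6 libraries, as were Nfkbie and Tnfaip3. Nfkb2 was higher in the macrophage-labelled than in the monocyte-labelled cells in 6 of 6 libraries, with 43.7 ± 10.7 against 30.7 ± 3.97 CPM. Tnfaip3 averaged 63.3 ± 32.3 CPM in the macrophage-labelled cells and was above the monocyte-labelled cells in 4 of 6 libraries. Nfkbia and Rela had no order among the 3 labels that held in all libraries. Marker lists differed between the labels as well. From neutrophil-labelled to monocyte-labelled cells the erythroid list averaged 769 against 54.8 CPM, the stromal, bone and tooth list 408 against 13.9 CPM, the dendritic cell list 1007 against 2566 CPM and the monocyte or macrophage list 1975 against 4177 CPM. Between macrophage-labelled and monocyte-labelled cells the lists differed too. The monocyte or macrophage list averaged 8327 against 4177 CPM, the dendritic cell list 6936 against 2566 CPM, the erythroid list 767 against 54.8 CPM and the stromal, bone and tooth list 413 against 13.9 CPM. Their part in the differences between labels was not tested.

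**Figure D2:**
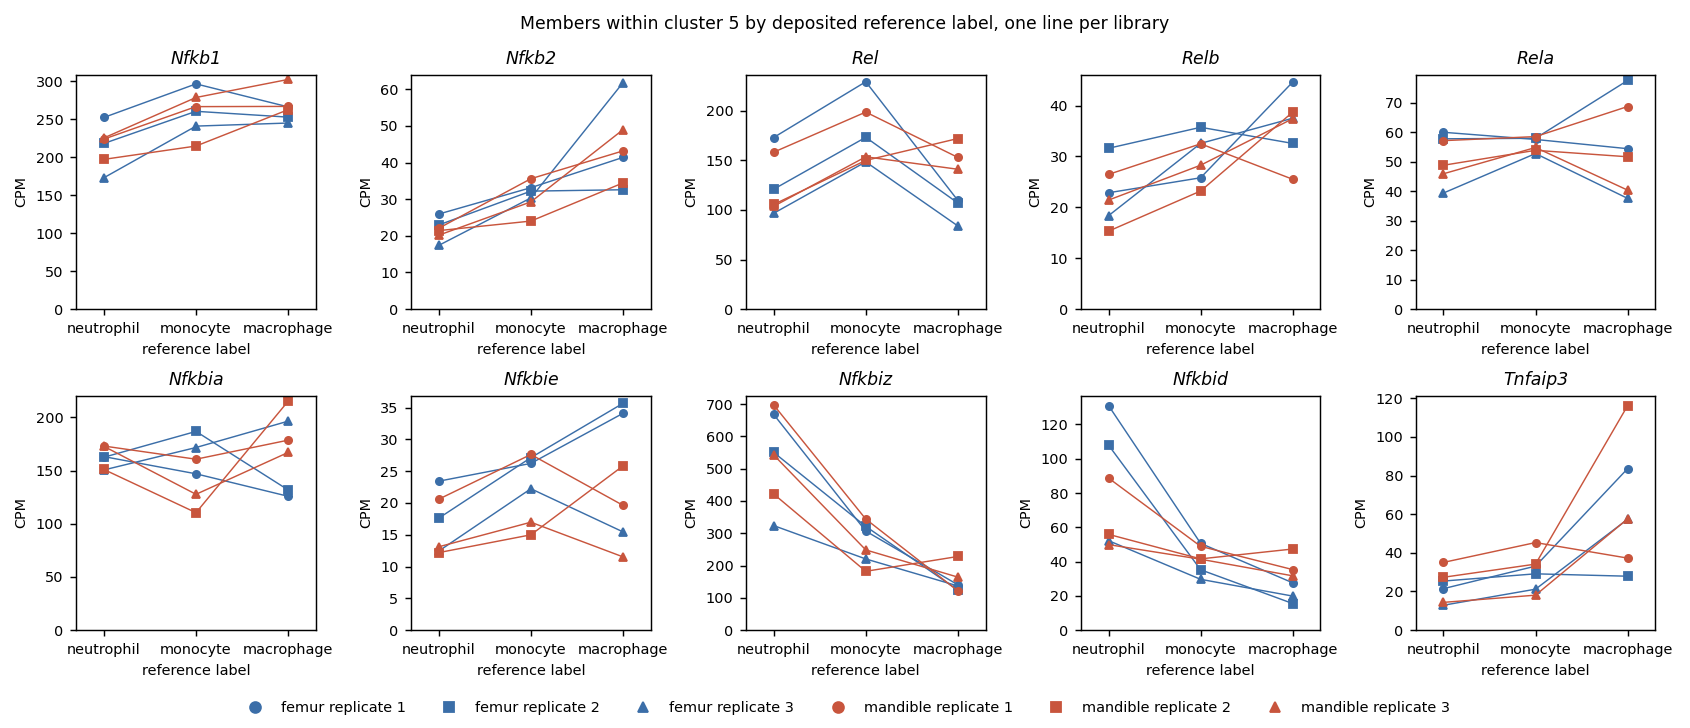
Levels in CPM (linear axes from 0) of the 10 genes in the neutrophil-labelled, monocyte-labelled and macrophage-labelled cells of cluster 5, with a line for each of the 6 libraries (blue femur, red mandible). Nfkbiz and Nfkbid fall away from left to right between the first 2 labels in every library, whereas Nfkb1, Nfkb2 and Rel climb.

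The comparison of skeletal sites asked whether these genes differed between mandibular-derived and femur-derived cells of the same cluster. Nfkbia, Nfkbiz and Tnfaip3 had higher means in mandibular-derived cells of neutrophil clusters 1 and 2, and Nfkbid lower ones. With all 6 libraries, the low-count filter and no block, however, none of the 10 genes passed edgeR's test after adjustment. Counts summed per library and cluster were compared with edgeR's quasi-likelihood test, with p-values adjusted by Benjamini-Hochberg over all genes tested in a cluster. The log2 differences from edgeR were also scaled for library composition (TMM factors), which the CPM values were not. All 10 genes passed the low-count filter in clusters 0 to 7, and only Nfkbiz and Nfkb1 did in cluster 8. At an adjusted p of 0.05, 0 of the 10 genes were called in any cluster or over all cells. Few genes of any kind were: edgeR called 0.0163% of all genes tested in cluster 0, 0.0842% in cluster 1, 0.0416% in cluster 2, 0.0108% in cluster 3, 0.0245% in cluster 4, 0.0842% in cluster 7, and 0% in cluster 5, cluster 6, cluster 8 and all cells together. Other settings changed these calls, and in the clusters concerned they called more genes of all kinds. DESeq2 called Nfkbia and Tnfaip3 in cluster 1, where it called 2.84% of all genes with an adjusted p, and Nfkbiz in cluster 4 (1.23%). Without the low-count filter edgeR called Nfkbia, Nfkbid and Tnfaip3 in cluster 1 (2.64% of all genes), Nfkbid and Tnfaip3 in cluster 2 (2.24%) and Nfkbiz in cluster 4 (2.02%). A replicate block on a number in the library names could use only the 4 libraries that share one. With it edgeR called Nfkbiz and Tnfaip3 in cluster 0 (4.6% of all genes), these and Nfkbia in cluster 1 (14.1%), these 3 and Nfkbid in cluster 2 (12.4%), Nfkbiz and Tnfaip3 in cluster 3 (5.28%) and Nfkbiz in cluster 4 (3.67%). At an unadjusted p under 0.05 edgeR had 2 of the 10 genes in cluster 0 (6.81% of all genes), 3 in cluster 1 (13.6%), 5 in cluster 2 (12.2%), 1 in cluster 3 (4.38%), 1 in cluster 4 (13%), 0 in cluster 5 (7.11%), 0 in cluster 6 (4.04%), 2 in cluster 7 (5.32%), 0 in cluster 8 (1.1%) and 0 over all cells (9.37%).

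Among genes tested in clusters 0 to 7, libraries of the 2 sites did not overlap for 7 pairs of gene and cluster. In 6 the mandible was higher: Tnfaip3 in cluster 0 (as for 2.47% of all genes tested there), Nfkbia in cluster 1 (4.88%), Nfkbia in cluster 2 (6.48%), Nfkbiz and Rela in cluster 4 (5.9%) and Nfkbia in cluster 7 (2.83%). In the seventh, Relb in cluster 7, the mandible was lower (7.91%). In clusters 3, 5 and 6 the sites overlapped for all 10 genes. The shares of all genes without overlap there were 3.84% higher and 3.87% lower in cluster 3, 7.32% and 4.29% in cluster 5, and 6.22% and 3.01% in cluster 6. The shares of genes lower in the mandible without overlap were 8.63% in cluster 0, 16.9% in cluster 1, 8.41% in cluster 2 and 10.1% in cluster 4. Overlap was judged on CPM without the TMM scaling, so these shares and the log2 differences are on different scales. In cluster 1 the TMM factors were 1.03, 1.11 and 1.01 in femur and 0.964, 0.913 and 0.983 in mandible libraries. The median log2 difference of all genes tested lay between -0.01 and 0.02 in each cluster.

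Nfkbia had the smallest p of the 10 genes. In cluster 1 it was at 159, 168 and 159 CPM in femur replicates 1 to 3 and at 237, 238 and 236 CPM in mandible replicates 1 to 3. The libraries of each site lay close together and the sites were well apart, with means of 162 ± 5.26 and 237 ± 1.24 CPM (SD, n = 3). The log2 difference of mandible over femur was 0.69 ± 0.12 (SE) with a 95% interval of 0.42 to 0.96 and an edgeR adjusted p of 0.0779, which missed the threshold. It was the 33rd smallest of 10687 p-values in that cluster. Without femur replicate 1, the only female library, it was 0.68 ± 0.13. DESeq2 gave an adjusted p of 0.000336, and over all 13 alternatives the adjusted p ranged from 5.05e-06 to 0.343.

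In cluster 2 Nfkbia was at 108, 121 and 115 CPM in the femur and at 150, 154 and 156 CPM in the mandible libraries. The log2 difference was 0.46 ± 0.13 (edgeR adjusted p = 0.192). In cluster 7 it was at 88.7, 168 and 142 CPM against 173, 181 and 220 CPM (log2 0.60 ± 0.25, edgeR adjusted p = 0.824), and without femur replicate 1 that difference was 0.36. In the earlier neutrophil clusters the sites overlapped, with log2 differences of 0.04 ± 0.11 in cluster 4, 0.12 ± 0.17 in cluster 0 and 0.05 ± 0.15 in cluster 3. In cluster 5 the difference was -0.16 ± 0.14, with a 95% interval of -0.49 to 0.17. It was -0.37 ± 0.16 in the monocyte-labelled cells, where Nfkbia averaged 168 CPM in femur and 133 CPM in mandible libraries, and 0.010 in cells called G1. It was -0.086 without femur replicate 3 and -0.072 without mandible replicate 2.

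Nfkbiz was higher on average in the mandible in clusters 0 to 8. The log2 differences in clusters 6 and 8 were 0.26 ± 0.30 and 0.32 ± 0.41, and alternatives turned them to as low as -0.30 and -0.068. In cluster 4 it was at 126, 102 and 105 CPM in femur and at 138, 158 and 164 CPM in mandible libraries, with no overlap. The log2 difference was 0.50 ± 0.09 (95% interval 0.28 to 0.71, edgeR adjusted p = 0.205), and DESeq2 gave an adjusted p of 0.00149. Over the 13 alternatives the adjusted p ranged from 7.84e-05 to 0.568 and the log2 difference from 0.44 to 0.89, the highest being that of cells called G1.

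In cluster 1 Nfkbiz was at 805, 1028 and 458 CPM in femur and at 1234, 855 and 1059 CPM in mandible libraries. Femur replicate 3 was the lowest and femur replicate 2 lay inside the mandible range. The log2 difference was 0.61 ± 0.25 (edgeR adjusted p = 0.335), and 0.35 without femur replicate 3. The values were 0.54 ± 0.21 in cluster 2 (0.34 without femur replicate 3), 0.46 ± 0.17 in cluster 3, 0.44 ± 0.16 in cluster 0 and 0.57 ± 0.22 in cluster 7. In cluster 5 it was 0.02 ± 0.19, with a 95% interval of -0.41 to 0.45.

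Tnfaip3, a gene of low counts, had the largest log2 differences of the 10 genes in clusters 1 and 2. In cluster 1 it was at 18.8, 25.2 and 10.4 CPM in femur and at 41.0, 34.7 and 24.0 CPM in mandible libraries. Only mandible replicate 3 and femur replicate 2 crossed. The log2 difference was 1.04 ± 0.30 (95% interval 0.37 to 1.72, edgeR adjusted p = 0.179), and DESeq2 gave an adjusted p of 0.0309. In cluster 2 the difference was 0.98 ± 0.38, with femur libraries at 9.8, 14.8 and 5.2 CPM and mandible libraries at 23.9, 21.2 and 9.89 CPM. In clusters 0, 3, 4 and 5 the log2 differences were 0.43 ± 0.17, 0.53 ± 0.30, 0.40 ± 0.20 and 0.21 ± 0.30. Without mandible replicate 1 the cluster 3 value was 0.17 and the cluster 5 value -0.022, and without femur replicate 3 the cluster 0 value was 0.27. In cluster 0 the femur libraries held 4.94 to 8.2 CPM and the mandible libraries 8.3 to 10.4 CPM, a gap far smaller than the range within either site.

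Nfkbid was lower on average in the mandible in clusters 0 to 8 and varied widely between libraries. The log2 differences in clusters 6 and 7 were -0.46 ± 0.28 and -0.59 ± 0.32, and Nfkbid was not tested in cluster 8. In cluster 1 it was at 360, 387 and 157 CPM in femur replicates 1 to 3 and at 247, 148 and 174 CPM in mandible replicates 1 to 3. Femur replicates 1 and 2 were the highest and femur replicate 3 lay among the mandible libraries. The log2 difference was -0.52 ± 0.30 (edgeR adjusted p = 0.514), -0.83 without femur replicate 3 and -0.20 with a replicate block on the number that 4 libraries share in their names. In cluster 2 it was -0.75 ± 0.27 (edgeR adjusted p = 0.294), from 206, 223 and 90.0 CPM against 126, 79.9 and 87.0 CPM. The log2 differences in clusters 0, 3, 4 and 5 were -0.17 ± 0.20, -0.41 ± 0.25, -0.17 ± 0.15 and -0.28 ± 0.18. Single libraries moved the cluster 0 value, which was -0.41 without mandible replicate 1, -0.29 without femur replicate 3 and -0.0089 without femur replicate 1. The cluster 3 value was -0.17 without femur replicate 2 and -0.63 without femur replicate 3. The cluster 4 value turned to 0.45 in cells called G1 and the cluster 5 value to 0.18 in monocyte-labelled cells, where the means were 38.5 CPM in femur and 44.0 CPM in mandible libraries.

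Nfkbie had log2 differences of 0.31 ± 0.25 in cluster 1 and -0.29 ± 0.23 in cluster 5, both within the spread of the libraries. Without mandible replicate 1 these were 0.11 and -0.56. For the 5 subunits, in cluster 1 the log2 differences ran from -0.08 for Rela to 0.19 for Rel, and in cluster 5 from -0.26 for Relb to -0.04 for Nfkb1. In cluster 1 the CPM means, which lack the TMM scaling, differed from these. Rel averaged 113 CPM in femur and 116 CPM in mandible libraries, and Rela 65.7 and 56.4 CPM. Nfkb2 (14.3 and 13.5 CPM) and Relb (19.8 and 18.6 CPM) were lower in the mandible, with log2 differences of 0.05 and 0.04. The largest log2 difference of a subunit in clusters 0 to 5 was that of Nfkb2 in cluster 2, at 0.40 ± 0.17 (edgeR adjusted p = 0.400), from 8.0, 11.3 and 8.5 CPM against 11.3, 11.1 and 13.2 CPM. Rela in cluster 4 was at 26.7, 28.0 and 25.7 CPM in femur and at 32.2, 28.6 and 29.4 CPM in mandible libraries (log2 0.20 ± 0.10, edgeR adjusted p = 0.427). Relb in cluster 7 was at 11.7, 22.6 and 18.5 CPM against 10.3, 10.5 and 6.90 CPM (log2 -0.87 ± 0.40, edgeR adjusted p = 0.950).

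**Figure D3:**
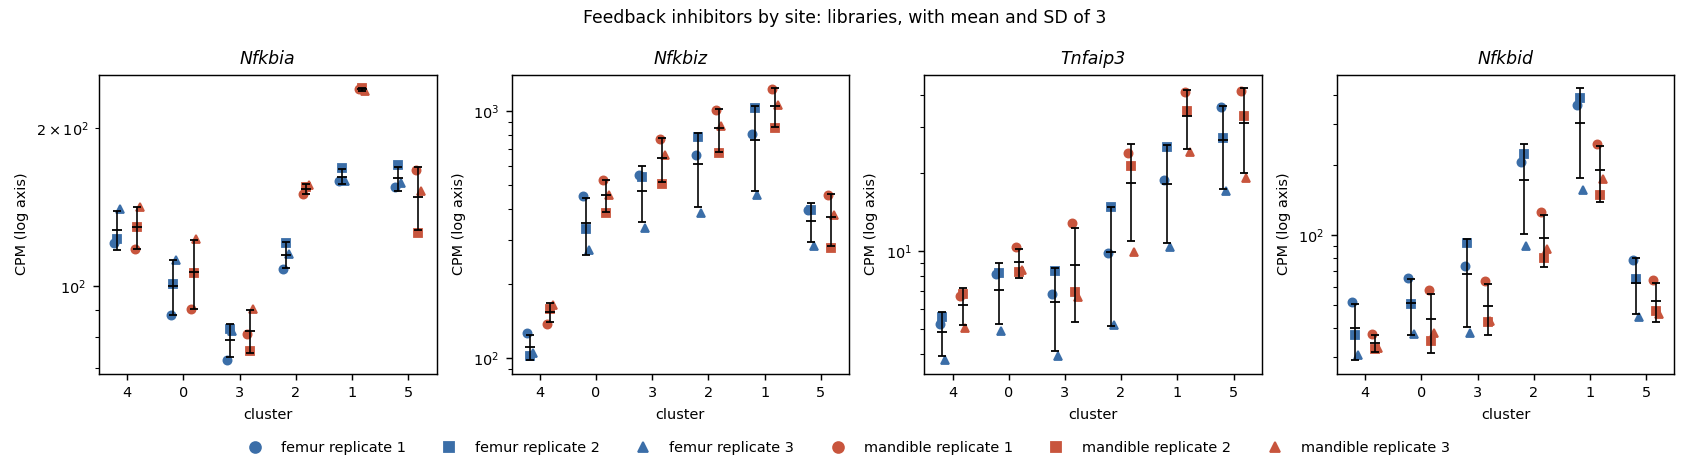
Levels of Nfkbia, Nfkbiz, Tnfaip3 and Nfkbid in CPM (log axes) by cluster, with femur libraries in blue and mandible libraries in red, and bars for the mean and SD of 3 libraries. For Nfkbia the sites parted in clusters 2 and 1 alone of the 6 shown, with mandible libraries at 236 to 238 CPM and femur libraries at 159 to 168 CPM in cluster 1.

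**Figure D4:**
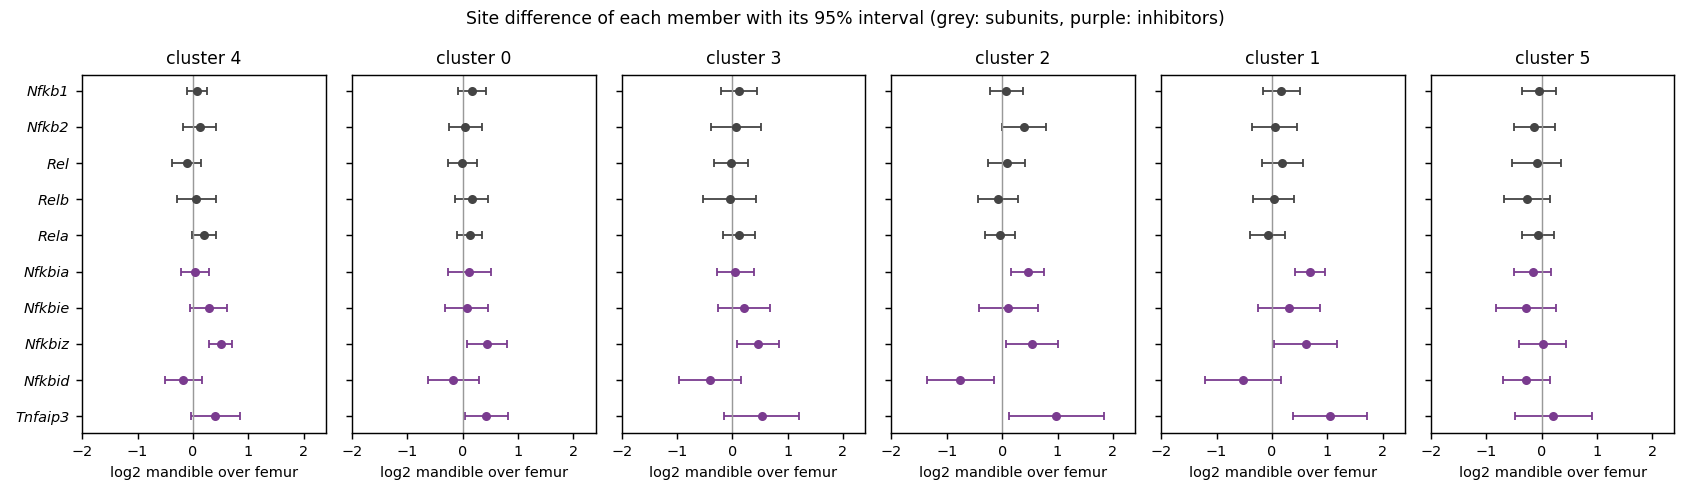
Log2 difference of mandible over femur from edgeR for the 10 genes in clusters 4, 0, 3, 2, 1 and 5, with 95% intervals (grey subunits, purple inhibitors). The intervals of Nfkbia, Nfkbiz and Tnfaip3 lie above 0 in clusters 1 and 2, as do those of Nfkbiz in clusters 0, 3 and 4 and Tnfaip3 in cluster 0, that of Nfkbid lies below 0 in cluster 2, those of the subunits reach 0 in all 6 clusters save that of Nfkb2 in cluster 2, and none of the 10 genes passed an adjusted p of 0.05.

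A further test asked whether the sites differed by another amount in neutrophils than in cluster 5. For this, limma was run on each library's log2 CPM in a neutrophil cluster less that in cluster 5. For Nfkbia the site difference was 0.84 ± 0.16 log2 units greater in cluster 1 than in cluster 5 (limma adjusted p = 0.328). The values for Tnfaip3 and Nfkbiz were 0.88 ± 0.21 (limma adjusted p = 0.401) and 0.65 ± 0.21 (limma adjusted p = 0.430). Against cluster 5 the cluster 2 value of Nfkbia was 0.61 ± 0.16 (limma adjusted p = 0.368) and the cluster 3 value 0.22 ± 0.16 (limma adjusted p = 0.999). The cluster 3 value of Nfkbiz was 0.46 ± 0.13 (limma adjusted p = 0.895). In limma 0% of all genes passed in each of the 3 contrasts. At an unadjusted p under 0.05 there were 4 of the 10 genes in cluster 1 (9.82% of 10383 genes tested) and the same 4 in cluster 2 (8.61% of 9491), namely Nfkbia, Nfkbiz, Nfkbie and Tnfaip3, and 2 in cluster 3 (5.12% of 9176), Nfkbiz and Nfkbie. No difference between clusters in the site effect was therefore shown for these 10 genes.

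Markers of neutrophils, of other cells and of handling also varied between the libraries. In cluster 1 a list of 11 dissociation and handling genes, such as Fos, Jun and Hspa1a, all of them detected in each library, summed to 10790, 9597 and 6363 CPM in femur and to 12324, 8472 and 6988 CPM in mandible libraries. Femur replicate 3, lowest for Nfkbiz and Tnfaip3, was also the lowest for this list, and mandible replicate 1 was the highest for all 3. The other libraries did not keep that order. Femur replicate 1 was above femur replicate 2 for the list but below it for both genes. Mandible replicate 2 was above mandible replicate 3 for the list and Tnfaip3 but below it for Nfkbiz. For Nfkbia the libraries of a site did not follow the list either. The stromal, bone and tooth list of 8 genes, with 5 detected in each femur and 7 or 8 in each mandible library of cluster 1, summed to 10.5 to 14.3 CPM in femur and to 27.7 to 62.7 CPM in mandible libraries. The monocyte or macrophage list, 8 of 8 genes detected, summed to 428 to 543 against 590 to 697 CPM there. Most of that sum was Ly6c2, which averaged 392 CPM in cluster 1, while the monocyte gene Ccr2 averaged 3.46 CPM. Lists also parted without overlap in the other clusters where members did, and in cluster 3, where no member did. In cluster 3 the stromal, bone and tooth list summed to 4.89 to 9.51 CPM in femur and to 17.9 to 38.1 CPM in mandible libraries. The stromal, bone and tooth list was higher in the mandible libraries of cluster 0 (6.03 to 9.13 against 19.5 to 38.5 CPM), cluster 2 (5.07 to 19.5 against 31.0 to 86.9 CPM), cluster 4 (2.90 to 4.20 against 14.1 to 18.7 CPM) and cluster 7 (9.34 to 75.6 against 518 to 1279 CPM). Of its 8 genes, 3 to 6 were detected in these femur and 7 or 8 in these mandible libraries. The erythroid list was higher in the mandible in cluster 0 (16.3 to 23.7 against 45.9 to 191 CPM). The monocyte or macrophage list was higher in cluster 2 (598 to 744 against 799 to 886 CPM) and lower in cluster 4 (804 to 827 against 753 to 782 CPM). Ly6c2 averaged 642 and 763 CPM in these clusters, and Ccr2 2.20 and 5.08 CPM. In neutrophil clusters this list therefore does not measure monocytes alone. The T or NK cell list of 4 genes, with 2 to 4 detected, was higher in cluster 1 (7.55 to 11.3 against 13.7 to 16.2 CPM), cluster 2 (10.4 to 13.4 against 15.8 to 17.1 CPM) and cluster 4 (80.3 to 94.6 against 105 to 136 CPM). The neutrophil list overlapped between sites in clusters 1 and 2. In cluster 1 it summed to 172935, 147354 and 215666 CPM in femur and to 199398, 260493 and 231250 CPM in mandible replicates 1 to 3. In cluster 2 the sums were 240198, 211099 and 308858 CPM against 255961, 321797 and 281269 CPM. Within each site, in both clusters, Nfkbid was lowest in the library where this list was highest. In cluster 5 the stromal, bone and tooth list summed to 65.5 to 113 CPM in femur and to 158 to 1905 CPM in mandible libraries. The erythroid list (142 to 562 against 579 to 1289 CPM) and the B cell list (24.5 to 32.2 against 32.9 to 86.2 CPM) were also higher there in all mandible libraries, and the dendritic cell list was lower (2507 to 4015 against 1218 to 2181 CPM). The neutrophil list summed to 66653, 74145 and 180762 CPM in femur replicates 1 to 3 and to 79150 to 113800 CPM in mandible libraries. In femur replicate 3, 717 of 1443 cluster 5 cells were neutrophil-labelled. The cluster 5 values of the members, of the limma contrasts and of the pathway lists below were measured over this mix of cells. The part of these in the site differences was not tested.

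Shares of cells with at least 1 UMI depend on depth, which differed between clusters. In the femur libraries Nfkbia was seen in 84.5% ± 4.22 (SD, n = 3) of cluster 4 cells and 42.7% ± 3.46 of cluster 1 cells, with median depths of 21250 to 23203 and 3827 to 6153.5 UMIs in these libraries. Thinned to 1000 UMIs per cell, which left out 66 femur and 22 mandible cells, the shares were 11.4% ± 1.03 and 12.9% ± 0.737. In the mandible libraries the cluster 1 share of Nfkbia was 49.6% ± 1.27 as counted and 19.0% ± 0.536 thinned. For Nfkbiz the thinned shares in cluster 1 were 44.7% ± 12.3 in femur and 57.8% ± 4.95 in mandible libraries (79.6% ± 12.0 and 88.8% ± 3.29 as counted). Nfkbid was seen in 23.9% ± 7.99 and 17.8% ± 3.01 of the thinned cluster 1 cells, and Tnfaip3 in 1.86% ± 0.658 and 3.39% ± 0.403. No cell type here is known to lack these genes, so no background share from free RNA could be set beside them.

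Of 86 other genes of the pathway 0 passed with edgeR in any cluster, cluster 8 and all cells included. DESeq2 called Il1b in clusters 0, 1, 2, 3, 5 and 7, with Ccl4 in cluster 0, Cd274 in cluster 1 and Bcl2a1a and Bcl2a1b in cluster 5, and Ikbkg in cluster 4. Over all cells it called Cd274, Il1b and Tlr4. DESeq2 called 0.399% of all genes with an adjusted p in cluster 0, 1.85% in cluster 2, 0.367% in cluster 3, 0.519% in cluster 5, 0.337% in cluster 7 and 1.46% over all cells, and 0% in cluster 6 and 0.0786% in cluster 8, where it called 0 of the pathway genes, beside the shares in clusters 1 and 4 given above. In cluster 1, 77 were tested, of which 3 were higher and 8 lower in the mandible at an unadjusted p under 0.05, beside the 13.6% of all genes given above. In cluster 5 these counts were 0 and 11 of 84, beside 7.11% of all genes. Among 26 genes of the IkB kinase and its upstream kinases and adaptors, the median log2 difference was 0.01 in cluster 1 and -0.12 in cluster 5. The 2 farthest from 0 were Traf1 (0.42 ± 0.27) and Ticam1 (0.37 ± 0.27) in cluster 1, and Traf1 (-0.76 ± 0.23) and Ikbkg (-0.46 ± 0.16), the regulatory subunit of the kinase, in cluster 5.

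Among the receptors the median was -0.07 in cluster 1 (11 tested) and -0.34 in cluster 5 (14 tested). Tlr1, a Toll-like receptor for bacterial lipopeptides, was at -0.79 ± 0.43 and -0.77 ± 0.26, followed by Il1rap (-0.60 ± 0.31) in cluster 1 and Tlr9 (-0.76 ± 0.51) in cluster 5. The list of other inhibitors had medians of -0.08 in cluster 1 and -0.16 in cluster 5. In it Tnip2, a binding partner of A20, was at -0.99 ± 0.30 in cluster 1 (edgeR adjusted p = 0.197). Cd274 (PD-L1) was counted in this list although it is not an inhibitor of the pathway. It was at -0.88 ± 0.20 in cluster 1 and -0.76 ± 0.26 in cluster 5. Itch followed in cluster 5 at -0.32 ± 0.18. The 3 genes of the linear ubiquitin ligase had medians of 0.02 and 0.01.

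Among NF-kB target genes the median was 0.02 in cluster 1 (25 tested) and -0.22 in cluster 5 (28 tested), and the leading genes split. Tnf, the cytokine, was at 0.87 ± 0.27 in cluster 1 (edgeR adjusted p = 0.211), and Il1b, the interleukin-1 beta gene, was at -0.81 ± 0.25 (edgeR adjusted p = 0.208). In cluster 5 Il1b was at -1.36 ± 0.19 (edgeR adjusted p = 0.328) and Bcl2a1a, a survival gene with near-identical copies whose counts are therefore uncertain, at -1.23 ± 0.28.

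Genes whose levels ran most like those of the members were ranked by Pearson's r over 48 sums (8 clusters in 6 libraries) among 7095 genes of at least 10 CPM. These sums share libraries and were clustered on the same genes, so the r is a description. Nearest to Nfkbiz were Nabp1 (r = 0.963), Cd44 (0.954) and Tmcc1 (0.948). Nearest to Nfkbid were Sik3 (0.928), Kmt2c (0.911) and March7 (0.906), and nearest to Rel were Mef2d (0.946), Foxp1 (0.941) and Unc93b1 (0.938). For Nfkbia the nearest gene was Mrps28 (0.776). Nearest to Nfkb1 was Atxn7 (0.918), to Nfkb2 Sbf2 (0.957), to Relb Zfp182 (0.937), to Rela Mob1b (0.953) and to Nfkbie Tmem123 (0.933). Within the 10 genes, Rel ran with Relb (0.931), Nfkbie with Rel (0.881) and Relb (0.856), Nfkbia with Tnfaip3 (0.741), and Nfkbiz with Rela (0.702) but not with Nfkbia (0.017).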

How the data were processed

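CD11b+ bone marrow cells of 3 femur and 3 mandible libraries were sequenced with 10x 3′ chemistry. The authors aligned reads to mm10 with Cell Ranger (7.0.1 in the submitters' processing notes) and deposited raw UMI counts per gene and barcode. They also deposited, per cell, cluster numbers, reference labels, cell cycle calls and the percent of mitochondrial UMIs, made with Seurat after their own cell filters and integration. Of 74091 barcodes, the 69776 that the cell table keeps were used. No separate doublet call was made here. The deposited table of cluster marker genes holds the authors' fold changes and p-values and was not used.

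Counts were summed per library and cluster and compared with edgeR 4.0.16 (R 4.3.3; TMM, filterByExpr, quasi-likelihood test), with Benjamini-Hochberg adjustment over all genes tested and a threshold of 0.05. Site effects were compared between clusters with limma 3.58.1 on log2 CPM (prior count 2). Alternatives were DESeq2 1.42.0, library sizes alone, no filter, each library left out, 2 replicate blocks, cells of a cluster's commonest label and cells called G1. The edgeR and limma steps were also run on simulated data, whose outcome is not given here. The members and lists were chosen with earlier results of these data known. The text names all 10 members, the 2 genes farthest from 0 in each pathway list of 3 genes or more in clusters 1 and 5 (the ligase list as counts only), and the genes of nearest pattern. Tnfaip3 has no pattern gene printed. Depth was 82962160 to 244946998 UMIs per library, and thinned shares used 1000 UMIs per cell. Promoter windows came from RefSeq tables; Nfkbiz, Nfkb1 and Relb were not matched there.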

Additional observations from a re-analysis of the deposited data

How the results depend on the processing

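No member was called by edgeR with all 6 libraries and the low-count filter. That count stayed at 0 with library sizes alone, with G1 cells, with the commonest label and without any single library (lowest and highest count 0 and 0). It depended on the test, on the filter and on 1 of the blocks. DESeq2 called 2 members in cluster 1 (2.84% of all genes) and 1 in cluster 4 (1.23%). Without the low-count filter edgeR called 3 in cluster 1 (2.64%), 2 in cluster 2 (2.24%) and 1 in cluster 4 (2.02%). The cause was not tested.

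Titles number the libraries 1 to 3 in both groups, and a replicate block on these numbers called 0 members in every cluster. In cluster 0 libraries of the same title number did not deviate together (r = -0.04, -0.40 and 0.10 over genes). Their r was 0.16, -0.097 and 0.091 in cluster 4, 0.14, -0.042 and 0.078 in cluster 5, and 0.61, 0.33 and -0.20 in cluster 8. A number in the library names (6 or 7) is shared by 4 libraries, and the labels do not say what it marks. The deviations of the 2 pairs correlated at 0.29 to 0.50 in clusters 0 to 3, 0.0031 and 0.13 in cluster 4, 0.090 and 0.19 in cluster 5, 0.14 and 0.33 in cluster 6, 0.22 and 0.15 in cluster 7, and -0.63 and -0.17 in cluster 8. With that number as replicate block, which leaves 1 residual degree of freedom, edgeR called 2 members in cluster 0 (4.6% of all genes), 3 in cluster 1 (14.1%), 4 in cluster 2 (12.4%), 2 in cluster 3 (5.28%) and 1 in cluster 4 (3.67%). In this replicate block Nfkbia turned to -0.082 in cluster 0, -0.079 in cluster 3 and -0.063 in cluster 4 (log2), and Nfkbid to 0.079 in cluster 0 and 0.082 in cluster 4. Nfkbid was at -0.45, -0.20 and -0.054 in clusters 2, 3 and 5, Nfkb2 at 0.25 in cluster 2, Nfkbia at 0.27 in cluster 7, and Tnfaip3 at 0.61 and 0.69 in clusters 4 and 5.

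Other settings also turned directions. In the replicate block on title numbers Nfkbiz was at -0.0025 in cluster 5. In G1 cells Nfkbid was at 0.45 in cluster 4, Nfkbia at 0.010 and Nfkb1 at 0.0104 in cluster 5. In cells of the commonest label of cluster 5 Nfkbid was at 0.18 and Nfkbiz at -0.16. Leaving out 1 library at a time gave log2 ranges of -0.0089 to 0.30 for Nfkbia in cluster 0, -0.056 to 0.19 in cluster 3 and -0.038 to 0.16 in cluster 4. The ranges were -0.30 to 0.016 for Nfkbid in cluster 4, -0.14 to 0.18 for Nfkbiz, -0.022 to 0.48 for Tnfaip3 and -0.079 to 0.050 for Nfkb1 in cluster 5. The test of site effects between clusters was also run without each library, chosen after seeing the data, and called 0 members each time. With each cell weighted equally the cluster 6 levels of Nfkbia, Tnfaip3, Nfkb2 and Relb moved by more than their SD. Cluster 8, with 11 to 160 cells per library, limits what can be said there.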
